A study of Mus musculus with 9 samples.

Results

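The nectins Nectin1, Nectin2, Nectin3 and Nectin4, the nectin-like molecule Pvr and the nectin-binding scaffold afadin (Afdn) were followed in 9 libraries of mouse mammary tumour organoids with and without floxed Cdh1, the gene for E-cadherin. These 6 genes were found by symbol among the 51912 Ensembl genes of the deposited table, and all 6 passed the filter on low counts. The 5 E-cad-KO samples were Cdh1fl/fl and the 4 WT samples Cdh1+/+, in both cases in FVB/NJ mice. Both groups also carried MMTV::PyMT, the polyoma middle T oncogene under the mammary tumour virus promoter, and (R26)pCA::mT/mG, a Rosa26 membrane reporter that Cre switches. Organoids, which are fragments of tumour epithelium, received adeno-Cre overnight in both groups and were then kept for 48 h in collagen I with FGF2. The age of the mice and the identity of the animals are not stated in the labels, and the p-values therefore rest on the spread between samples, which may be partly technical.

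Nectins are immunoglobulin-type adhesion molecules that bind one another across the gap between neighbouring cells, each preferring particular partners. Their cytoplasmic tails bind the PDZ domain of afadin, which in turn binds actin filaments, and the nectin and afadin complex forms cell contacts side by side with E-cadherin and its catenins at adherens junctions. Pvr, also called necl-5 or CD155, binds Nectin3 on adjacent cells, does not bind afadin, and is recognised by receptors of T cells and natural killer cells.

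Library totals ran from 44890302 to 62416955 counts in E-cad-KO and from 52603695 to 64763645 counts in WT. Levels are counts scaled to a common library size with TMM factors (CPM), of which 1 is about 44.9 counts in the smallest library. Cdh1, the targeted gene, was at 79.0 to 118.3 CPM in E-cad-KO and at 150.3 to 246.5 CPM in WT, so that the groups did not overlap and transcript remained in every E-cad-KO library. The labels do not name the floxed exons, and the counts cover all exons. Of the 7 luminal markers 0 were called (edgeR adjusted p under 0.05), against 1.41% of all 17289 genes tested, so that 0 of 7 says little. Krt8 was at 1393.2 to 1724.0 CPM in E-cad-KO and 1098.6 to 1327.7 CPM in WT. The Krt8 groups did not overlap, as for 8.11% of all genes tested. Krt19 was at 270.9 to 565.2 CPM in E-cad-KO and 306.8 to 756.3 CPM in WT, and Elf5 at 248.8 to 325.1 CPM in E-cad-KO and 300.4 to 411.6 CPM in WT. The basal keratin gene Krt14 was at 3045.4 to 6529.5 CPM in E-cad-KO and 1874.3 to 9278.1 CPM in WT. Transcripts of marker genes of other cell types were present, and which cells they came from was not tested. The 7 fibroblast markers summed to 125.3 to 214.1 CPM in E-cad-KO and 62.3 to 343.7 CPM in WT, and the 6 endothelial markers to 3.60 to 6.46 CPM in E-cad-KO and 5.20 to 11.5 CPM in WT. The 6 T and NK cell markers summed to at most 0.205 CPM in E-cad-KO and 0.164 CPM in WT, and Cd3e and Ncr1 had no count in any library. The 7 macrophage markers summed to 512.8 CPM in WT 4, against 344.4 to 398.3 CPM in E-cad-KO and 373.1 to 429.1 CPM in the other WT libraries. Cd14 ran against the rest and was lowest in WT 4 (166.6 CPM). Without Cd14 the other 6 markers summed to 346.2 CPM in WT 4, most of it Lyz2 (307.5 CPM). That sum was 24.2 to 140.8 CPM in the E-cad-KO libraries and 16.7 to 87.0 CPM in the other WT libraries.

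Pvr rose in E-cad-KO organoids and was the only member of the group called. It stood at 51.5, 51.4, 46.7, 56.4 and 51.9 CPM in E-cad-KO 1 to 5, against 41.0, 36.7, 37.7 and 41.9 CPM in WT 1 to 4. Every E-cad-KO library was above every WT library, and within each group the values lay close together, with a coefficient of variation of 6.63% in E-cad-KO and 6.43% in WT. The means were 51.6 ± 3.42 CPM in E-cad-KO and 39.3 ± 2.53 CPM in WT (SD, n = 5 and n = 4), a 1.31-fold difference with a 95% confidence interval of 1.18 to 1.45 (log2 fold change 0.39, SE 0.07, edgeR adjusted p = 0.0324). Thus 1 of 6 members was called, against 1.41% of all 17289 genes tested, and 0.908% were called higher. Groups that did not overlap were seen for 1 of 6 members and for 8.11% of all genes tested. Tissue was sequenced in bulk, so a change in the RNA per cell and a change in the number of cells that carry it cannot be told apart.

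The size of the Pvr difference varied little when single libraries were left out, from 0.36 to 0.43 on the log2 scale, but the call was lost when any of the 5 E-cad-KO libraries was omitted (edgeR adjusted p = 0.0664, 0.0588, 0.0513, 0.0657 and 0.0644 for replicates 1 to 5) and when WT 2 (0.0616) or WT 3 (0.105) was. Libraries also differed in the level of long transcripts: the median centred log2 CPM of genes with a transcript of at least 5000 bases minus that of genes under 2000 bases was 0.016 to 0.09 in E-cad-KO and -0.077 to -0.039 in WT. After correction of each library for transcript length and GC content, the log2 fold change of Pvr was 0.39 (edgeR adjusted p = 0.0356).

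Among the nectins proper, Nectin2 had the largest difference. It stood at 33.2, 44.6, 44.1, 33.7 and 33.7 CPM in E-cad-KO 1 to 5, against 38.9, 32.9, 27.4 and 22.7 CPM in WT 1 to 4. E-cad-KO 2 and 3 lay above all WT libraries, but the other E-cad-KO libraries fell below WT 1, and the difference was not called (log2 fold change 0.31, 95% confidence interval -0.05 to 0.67, edgeR adjusted p = 0.37). Nectin2 lies on chromosome 7 from 19716644 to 19750483 (GRCm38), and Pvr on the same strand of the same chromosome from 19903578 to 19921160, with 153.1 kb between the genes. The other members lie apart: Nectin1 on chromosome 9 (43743984 to 43807461), Nectin3 on chromosome 16 (46387706 to 46498525), Nectin4 on chromosome 1 (171370099 to 171388598) and Afdn on chromosome 17 (13760539 to 13906150).

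Nectin1, which binds itself, Nectin3 and Nectin4, was at 24.4, 34.4, 35.6, 24.6 and 22.7 CPM in E-cad-KO 1 to 5, against 32.7, 25.6, 24.4 and 15.3 CPM in WT 1 to 4. The groups overlapped over most of their range, and WT 4 was the lowest of all libraries (log2 fold change 0.21, 95% confidence interval -0.28 to 0.70, edgeR adjusted p = 0.694). Nectin4, an epithelial nectin known as a surface target in human breast and bladder cancers, was at 34.9, 67.9, 55.9, 43.8 and 45.3 CPM in E-cad-KO 1 to 5. It was at 64.6, 51.5, 39.3 and 28.6 CPM in WT 1 to 4. Here too high and low libraries occurred in both groups, with means of 49.6 ± 12.7 CPM in E-cad-KO and 46.0 ± 15.5 CPM in WT (SD, n = 5 and n = 4; log2 fold change 0.11, edgeR adjusted p = 0.884). The Nectin4 interval, -0.47 to 0.68, leaves room for a difference as large as that of Pvr in either direction.

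Nectin3, the shared partner of Nectin1, Nectin2 and Pvr across cell contacts, was at 11.6, 8.11, 9.20, 14.8 and 17.7 CPM in E-cad-KO 1 to 5, against 6.96, 9.89, 12.6 and 19.4 CPM in WT 1 to 4. It was highest in WT 4, where Nectin1, Nectin2 and Nectin4 were lowest, and lowest in WT 1. The group means were 12.3 ± 3.98 CPM in E-cad-KO and 12.2 ± 5.31 CPM in WT (SD, n = 5 and n = 4; log2 fold change 0.01, 95% confidence interval -0.70 to 0.72, edgeR adjusted p = 0.994).

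Afadin, the scaffold of the complex, was at 179.2, 204.5, 198.3, 167.5 and 164.8 CPM in E-cad-KO 1 to 5, against 197.1, 169.4, 158.1 and 124.4 CPM in WT 1 to 4. E-cad-KO 2 and 3 exceeded all WT libraries and WT 4 lay below every other library. The Afdn means were 183 ± 17.9 CPM in E-cad-KO and 162 ± 30.1 CPM in WT (SD, n = 5 and n = 4), which was not called (log2 fold change 0.17, 95% confidence interval -0.10 to 0.44, edgeR adjusted p = 0.529). All 6 members had a positive log2 fold change with TMM scaling, against 48% of all genes tested. They are not 6 separate observations, since Nectin1, Nectin2, Nectin4 and Afdn varied together between libraries (Pearson's r 0.89 to 0.97). Nectin3 was at 0.01 with TMM and negative with upper-quartile scaling (-0.03). The median of the 6 with TMM was 0.19, against -0.01 over all genes tested. With WT 4 left out, the log2 fold changes were 0.42 for Pvr, 0.32 for Nectin3, 0.19 for Nectin2, 0.06 for Afdn, 0.04 for Nectin1 and -0.06 for Nectin4, and Pvr alone was called (edgeR adjusted p = 0.0269). With the correction for transcript length and GC content, Nectin2 stood at 0.25, Afdn at 0.11, Nectin1 at 0.09, Nectin4 at 0.05 and Nectin3 at -0.04, none of them called. Exons of Afdn share 221 bases with Tcte2 and exons of Nectin2 share 135 bases with Gm20512, both on the opposite strand, and whether counting used the strand is not given in the sources used here.

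**Figure D1:**
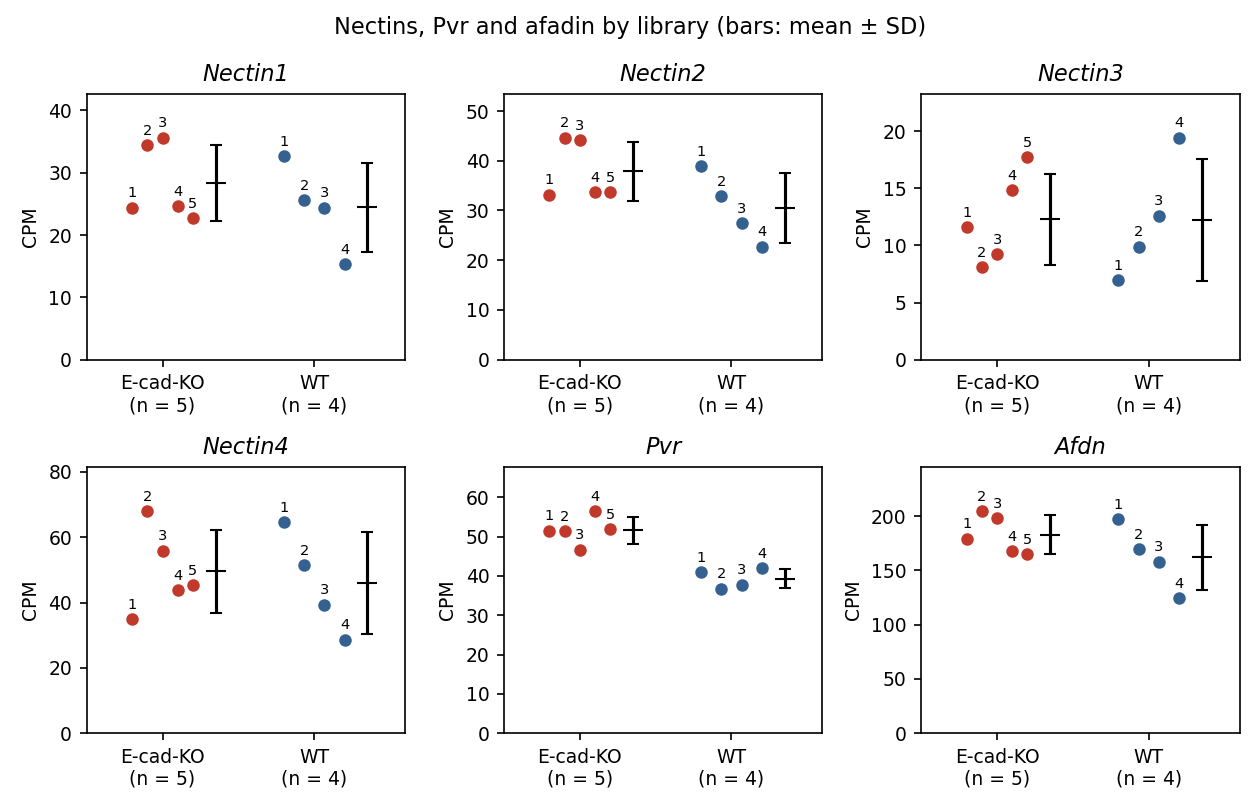
Level of each member in CPM (linear axis from 0) in each library, numbered by replicate, with E-cad-KO in red on the left, WT in blue on the right and mean ± SD beside the points. Pvr is the member whose groups do not overlap, from 46.7 CPM upward in E-cad-KO and up to 41.9 CPM in WT, while WT 4 is the lowest library for Nectin1, Nectin2, Nectin4 and Afdn and the highest for Nectin3.

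To compare levels between genes, CPM was divided by the length of all annotated exons of a gene, in kb. On this length-scaled basis afadin had the highest level, 17.9 ± 1.75 CPM per kb in E-cad-KO and 15.9 ± 2.94 CPM per kb in WT (SD, n = 5 and n = 4), and stood above each of the other 5 members in all 9 libraries. Nectin4 came next with 13.2 ± 3.38 CPM per kb in E-cad-KO and 12.3 ± 4.14 CPM per kb in WT, then Nectin2 with 10.8 ± 1.69 CPM per kb in E-cad-KO and 8.73 ± 2.01 CPM per kb in WT. The group ranges of these neighbours overlapped, although within a library Nectin4 was above Nectin2 in 8 of 9 cases, the exception being E-cad-KO 1. Pvr followed with 8.43 ± 0.559 CPM per kb in E-cad-KO and 6.42 ± 0.413 CPM per kb in WT, below Nectin2 in 8 of 9 libraries. Nectin1 had 5.01 ± 1.08 CPM per kb in E-cad-KO and 4.33 ± 1.26 CPM per kb in WT. Nectin3 was lowest at 0.964 ± 0.312 CPM per kb in E-cad-KO and 0.959 ± 0.417 CPM per kb in WT, under every other member in all 9 libraries.

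The places of Pvr, Nectin2 and Nectin4 in this order depended on the length used. Its longest annotated transcript has 2905 bases while its exons together span 6122 bases, and with the longest transcript Pvr had 17.8 CPM per kb in E-cad-KO and 13.5 CPM per kb in WT, above the 13.6 CPM per kb in E-cad-KO and 12.6 CPM per kb in WT of Nectin4. Nectin2 then had 13.8 CPM per kb in E-cad-KO and 11.1 CPM per kb in WT, and Nectin4 was above it in 5 of 9 libraries. Afadin stayed highest and Nectin3 lowest by mean with both lengths. For comparison, Cdh1 was at 20.0 ± 3.38 CPM per kb of exons in E-cad-KO and 41.4 ± 9.64 CPM per kb in WT, so that the mean of afadin was close to that of Cdh1 in E-cad-KO and well under it in WT.

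**Figure D2:**
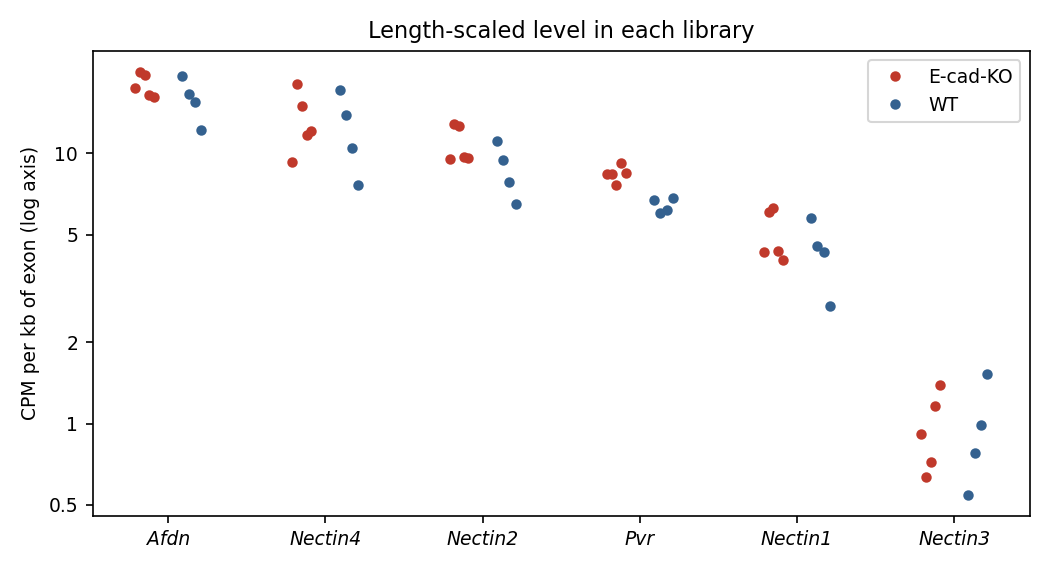
Length-scaled level (CPM per kb of exon, log axis) of each member in each library, E-cad-KO in red to the left of WT in blue, with members ordered by mean level. Afadin is at 12.2 to 20.0 CPM per kb over the 9 libraries and Nectin3 at 0.546 to 1.52 CPM per kb, and Pvr is the member whose groups separate.

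Nectin4 and Nectin2 made up most of the nectin transcript in both groups. Of the summed length-scaled level of the 4 nectins, Nectin4 made up 43.6 ± 3.38% in E-cad-KO and 46.0 ± 3.69% in WT, and Nectin2 made up 36.3 ± 2.04% in E-cad-KO and 33.4 ± 1.37% in WT (SD, n = 5 and n = 4). Nectin1 made up 16.7 ± 1.40% in E-cad-KO and 16.4 ± 1.48% in WT. Nectin3 ranged from 1.69% to 5.13% in E-cad-KO and from 1.57% to 8.29% in WT, the highest share being in WT 4. The ratio of afadin to that sum was 0.605 ± 0.0753 in E-cad-KO and 0.614 ± 0.0531 in WT (SD, n = 5 and n = 4), a difference smaller than either SD. With the longest transcript as length, Nectin4 made up 39.9 ± 3.34% in E-cad-KO and 42.2 ± 3.87% in WT, and Nectin2 41.1 ± 2.09% in E-cad-KO and 38.0 ± 1.06% in WT (SD, n = 5 and n = 4), so that which of the 2 came first in E-cad-KO depended on the length. These shares were described and not tested.

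Much of the variation of Nectin1, Nectin2, Nectin4 and afadin ran between libraries of one group, and these genes varied together. After the group mean of log2 CPM was subtracted, Pearson's r over the 9 libraries was 0.89 to 0.97 for the 6 pairs among them (Spearman's rho 0.83 to 0.97). Nectin3 ran the other way, with r of -0.97 to -0.84 against those 4 genes, and Pvr followed neither, with r of -0.48 to 0.39 against the other 5. These coefficients share the libraries and their scaling and are given as a description. They are not particular to the nectins, because 745 of 10715 genes with at least 5 CPM (6.95%) had an r of at least 0.9 with afadin and 286 (2.67%) had an r of at most -0.9. For Pvr the shares were 0.177% and 0.140%.

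The genes most like each member by this measure were taken from the same 10715 genes. For Nectin3 they were the lysozyme gene Lyz2 (r = 0.993), the cathepsin S gene Ctss (0.988) and the perforin-2 gene Mpeg1 (0.986), all 3 known from macrophages. For Nectin1 they were Tnfaip2 (0.993), the laminin chain gene Lama3 (0.993) and the planar polarity gene Vangl1 (0.991). For Nectin2 they were the mitochondrial chaperone gene Hspa9 (0.995), Ggt6 (0.993) and Gsap (0.992). For Nectin4 they were the mitophagy receptor gene Bnip3l (0.991), Isg20 (0.989) and Zfand1 (0.984). Afadin was most like the mitochondrial ribosomal RNA mt-Rnr2 (0.996), Fip1l1 (0.991) and Clip4 (0.991), and Pvr most like Spice1 (0.960), Xist (0.937) and Mtcp1 (0.935), with lower values than for any other member.

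The macrophage marker Lyz2 came first in the search for genes like Nectin3, so that its likeness to Nectin3 follows from that choice. Across libraries it moved against Nectin1, Nectin2, Nectin4 and afadin, as Nectin3 did. It was at 42.2, 16.3, 24.1, 89.1 and 122 CPM in E-cad-KO 1 to 5, against 10.8, 32.1, 76.3 and 307.5 CPM in WT 1 to 4. The 7 macrophage markers together summed to 344.4 to 398.3 CPM in E-cad-KO and 373.1 to 512.8 CPM in WT. Except in WT 4, most of this was Cd14. Cd14 was at 257.2 to 366.0 CPM in E-cad-KO and 166.6 to 391.7 CPM in WT, and lowest in WT 4. Without Cd14 the other 6 summed to 24.2 to 140.8 CPM in E-cad-KO and 16.7 to 346.2 CPM in WT, and none was at 0 in any library. None of the 7 was called, against 1.41% of all genes tested, which for so few genes says little. The sum of the 7 myoepithelial markers, mostly Krt14 and Krt5, ran the other way: it was 3761.7, 6451.8, 7798.4, 3779.9 and 3461.2 CPM in E-cad-KO 1 to 5, against 11468.2, 7990.0, 5340.1 and 2377.6 CPM in WT 1 to 4, highest in WT 1 and lowest in WT 4. The 7 markers did not move together, since Acta2, Myh11, Cnn1 and Oxtr were lowest in WT 1, with Cnn1 at 3.08 to 7.46 CPM in E-cad-KO, 2.12 CPM in WT 1 and 8.03 CPM in WT 4. The 7 luminal markers summed to 3980.3 to 5048.5 CPM in E-cad-KO and 3333.5 to 4554.2 CPM in WT. In WT 1 to 4 the fibroblast markers summed to 62.3, 118.1, 306.2 and 343.7 CPM and the endothelial markers to 5.20, 7.11, 10.2 and 11.5 CPM. Both sums rose in the order in which Nectin3 did. Among E-cad-KO libraries both were highest in E-cad-KO 3 (214.1 and 6.46 CPM), whereas Nectin3 was highest in E-cad-KO 5 (17.7 CPM). The part of the myoepithelial, luminal, fibroblast or endothelial markers in the nectin values was not tested. A macrophage score, the mean centred log2 CPM of all 7 macrophage markers with Cd14 included, was used as a covariate in a fit chosen after the data were seen. In it Nectin2 (log2 fold change 0.33, edgeR adjusted p = 0.0237) and Afdn (0.19, edgeR adjusted p = 0.0446) were called beside Pvr (0.39, edgeR adjusted p = 0.0056). Nectin3 stood at 0.05 in that fit (edgeR adjusted p = 0.789), and the same fit called 1291 genes in all against 244 without the covariate.

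**Figure D3:**
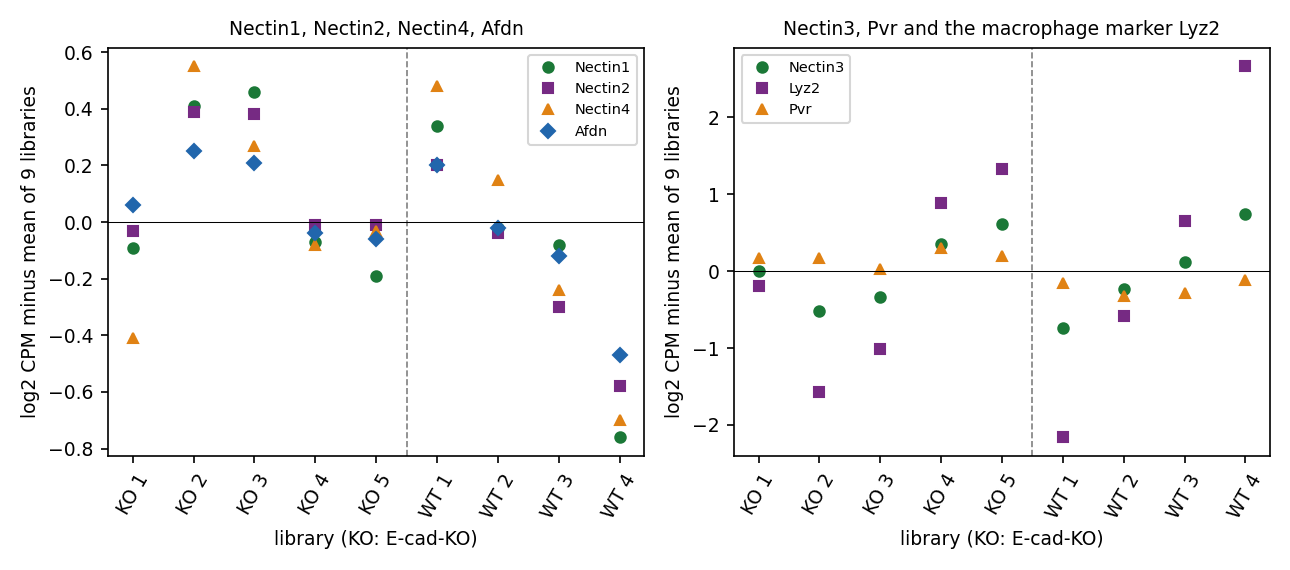
Log2 CPM minus the mean of the 9 libraries for each library, E-cad-KO left of the dashed line and WT right of it, for Nectin1, Nectin2, Nectin4 and Afdn (left panel) and for Nectin3, Pvr and the macrophage marker Lyz2 (right panel, wider axis). WT 4 is lowest for the left-hand genes (Nectin1 at -0.76) and highest for Nectin3 (0.74) and Lyz2 (2.66), while Pvr is positive in the 5 E-cad-KO libraries and negative in the 4 WT libraries.

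The start regions of Nectin2, Nectin4 and Afdn, which varied together, are shown with that of Nectin3, which varied against them. RefSeq windows were matched for 4 of the 6 members, all but Nectin1 and Pvr. Each line gives the bases before the start annotated by RefSeq, 5′ to 3′ on the gene's strand, without bases that GENCODE places in an exon of the gene. The GENCODE gene begins upstream of the RefSeq start, by 910 bases for Nectin2, 1558 for Nectin3, 74 for Nectin4 and 2 for Afdn, so that the Nectin2 and Nectin3 windows lie within the GENCODE gene spans. Capitals mark the GC box GGGCGG and the E-box CACCTG bound by Snail-type repressors, searched on both strands.
Nectin2 (GRCm38.p6 chr7:19749574-19749823, minus strand): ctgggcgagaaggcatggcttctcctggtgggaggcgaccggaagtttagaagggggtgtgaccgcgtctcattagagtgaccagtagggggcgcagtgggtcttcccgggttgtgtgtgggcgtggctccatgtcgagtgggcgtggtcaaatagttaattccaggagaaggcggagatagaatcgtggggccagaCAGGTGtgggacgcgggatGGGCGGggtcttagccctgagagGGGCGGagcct
Nectin4 (GRCm38.p6 chr1:171369923-171370098, plus strand): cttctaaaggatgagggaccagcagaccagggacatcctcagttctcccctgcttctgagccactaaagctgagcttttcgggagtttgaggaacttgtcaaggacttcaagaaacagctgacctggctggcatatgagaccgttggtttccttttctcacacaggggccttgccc
Afdn (GRCm38.p6 chr17:13760291-13760538, plus strand): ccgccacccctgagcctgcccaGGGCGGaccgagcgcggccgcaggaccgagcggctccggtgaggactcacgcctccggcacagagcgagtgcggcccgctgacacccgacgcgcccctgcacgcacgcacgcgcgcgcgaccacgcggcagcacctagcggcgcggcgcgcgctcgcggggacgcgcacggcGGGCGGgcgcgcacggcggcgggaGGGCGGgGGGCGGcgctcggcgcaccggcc
Nectin3 (GRCm38.p6 chr16:46496968-46497217, minus strand): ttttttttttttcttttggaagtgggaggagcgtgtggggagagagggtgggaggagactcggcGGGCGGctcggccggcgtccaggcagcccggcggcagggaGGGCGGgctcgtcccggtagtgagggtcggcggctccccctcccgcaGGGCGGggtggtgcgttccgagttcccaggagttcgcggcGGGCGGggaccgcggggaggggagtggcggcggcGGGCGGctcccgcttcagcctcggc

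Over the full 250 bases before the start, the GC content was 62% for Nectin2, 54.4% for Nectin4, 82.8% for Afdn and 73.2% for Nectin3, against a median of 52.4% over 32851 RefSeq windows. The GC box was found at 2 places for Nectin2, 4 for Afdn, 5 for Nectin3 and 0 for Nectin4, and 32.7% of all windows held at least 1. Nectin2 alone of the 4 held the E-box, written on its strand as CAGGTG and starting 53 bases before the start, a motif present in 17.2% of all windows. The TEAD motif GGAATG (12.6% of windows), the AP-1 motif TGANTCA (6.75%) and TGACGT, part of the cAMP response element (6.47%), did not occur in the 4 windows, and no matches overlapped. None of these motifs was found in all 3 of Nectin2, Nectin4 and Afdn. Whether any of the motifs bears on how these genes varied between libraries was not tested.

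Of 35 genes chosen as relatives, partners, signalling proteins and proteases of the nectins, 31 were tested, and 1 was called higher and 0 lower. At an unadjusted p under 0.05, 7 of the 31 were higher, against 8.74% of all genes tested, and 0 were lower, against 1382 of 17289. Several of the 7 shared a library pattern, given below, and are not separate observations. DESeq2 called 2 (8.46% of all genes to which it gave an adjusted p) and limma-voom 1 (2.94% of all genes). Among the 31, DESeq2 gave no adjusted p to Cadm3 and Tigit. The median log2 fold change over the 31 was 0.09 against -0.01 over all genes tested. The called gene was Bcr, which encodes a protein that binds afadin's PDZ domain. Bcr stood at 45.0, 41.6, 43.2, 45.7 and 42.3 CPM in E-cad-KO 1 to 5, against 34.1, 31.6, 37.5 and 34.8 CPM in WT 1 to 4. The Bcr groups did not overlap (log2 fold change 0.34, SE 0.06, edgeR adjusted p = 0.0343). Groups without overlap were seen for 2 of the 31 genes and for 8.11% of all genes tested. The Bcr call was lost with length and GC offsets (log2 fold change 0.24, edgeR adjusted p = 0.11), with upper-quartile scaling (0.0505) and in 8 of 9 single-library omissions (0.0588 to 0.0821), but not without WT 4 (0.0433).

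The nectin-like molecules other than Pvr are the Cadm proteins, which adhere without afadin. By edgeR 0 of 3 tested were called (1.41% of all genes tested) and by limma-voom 0 (2.94%). DESeq2 called 1 (8.46% of all genes to which it gave an adjusted p) and gave Cadm3 no adjusted p. At an unadjusted p under 0.05 by edgeR, 1 of the 3 was higher, against 8.74% of all genes tested. Cadm1 was at 76.7, 77.9, 82.2, 92.5 and 98.0 CPM in E-cad-KO 1 to 5, against 62.2, 76.0, 64.5 and 70.9 CPM in WT 1 to 4. Its groups did not overlap, as for 8.11% of all genes tested (log2 fold change 0.32, edgeR adjusted p = 0.105). Cadm4 averaged 53.1 ± 9.90 CPM in E-cad-KO and 40.5 ± 10.8 CPM in WT (SD, n = 5 and n = 4) with overlap (log2 fold change 0.39, edgeR adjusted p = 0.351). Cadm3 reached at most 0.475 CPM in E-cad-KO and 0.607 CPM in WT, and Cadm2 had at most 6 counts in E-cad-KO and 3 in WT and was not tested.

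The lymphocyte receptors of Pvr and the nectins were almost undetected. Cd226, an activating receptor for Pvr, had 1 count in E-cad-KO 1 and none elsewhere, and Pvrig, a receptor for Nectin2, had at most 2 counts in E-cad-KO and 3 in WT. Cd96, which binds Pvr, had at most 11 counts in E-cad-KO and 18 in WT. Tigit, an inhibitory receptor, was the member of this set that passed the filter, at 0.252 ± 0.0601 CPM in E-cad-KO and 0.211 ± 0.112 CPM in WT (SD, n = 5 and n = 4). It was not called by edgeR (adjusted p = 0.796) or limma-voom (adjusted p = 0.411), and its unadjusted p by edgeR was not under 0.05. DESeq2 gave Tigit no adjusted p and so could not call it.

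Of 14 junctional partners of nectins and afadin, 1, Bcr, was called, against 1.41% of all genes tested, and 9 had a positive log2 fold change, against 48% of all genes tested. The actin linker gene Vcl (log2 fold change 0.32, edgeR adjusted p = 0.201), the tight junction scaffold gene Tjp1 (0.27, edgeR adjusted p = 0.238) and the catenin gene Ctnna1 (0.23, edgeR adjusted p = 0.283) had the next smallest p-values. Vcl was at 163.5 to 204.8 CPM in E-cad-KO and 113.3 to 164.8 CPM in WT, and exceeded all WT libraries in 4 of 5 E-cad-KO libraries. Of 11 genes of small GTPase signalling from nectins, 0 were called by edgeR, DESeq2 or limma-voom. Over all genes these tools called 1.41%, 8.46% (of genes with an adjusted p) and 2.94%, so that 0 of 11 says little. By edgeR 2 of the 11 had an unadjusted p under 0.05, both higher. Of all 17289 genes tested, 1511 were higher and 1382 lower at that p. The 2 genes were the GTPase gene Rac1 (log2 fold change 0.21, edgeR adjusted p = 0.21) and its exchange factor gene Vav2 (0.19, edgeR adjusted p = 0.21). Vcl, Tjp1, Ctnna1 and Rac1 were highest in E-cad-KO 2 and 3 and lowest in WT 4, as Nectin2 and Afdn were. Without WT 4 their log2 fold changes were 0.21 for Vcl, 0.19 for Tjp1, 0.17 for Ctnna1 and 0.16 for Rac1. In that fit Vav2 stood at 0.16, and Bcr and Cadm1 at 0.34. Rapgef1, an exchange factor for Rap1, stood at 0.14 and Farp2, an exchange factor downstream of nectins, at -0.19 (edgeR adjusted p = 0.386 and 0.391). The proteases Adam10 and Adam17, which shed nectin ectodomains, stood at 0.15 and 0.04 (edgeR adjusted p = 0.552 and 0.808). Of the 2, 0 had an unadjusted p under 0.05 and 0 were called by DESeq2 or limma-voom. Against the shares of all genes given above, counts of 0 among 2 genes say little. Exons of Vcl, Ctnna1, Rac1, Rapgef1, Farp2 and Adam17 overlap a gene on the other strand.

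**Figure D4:**
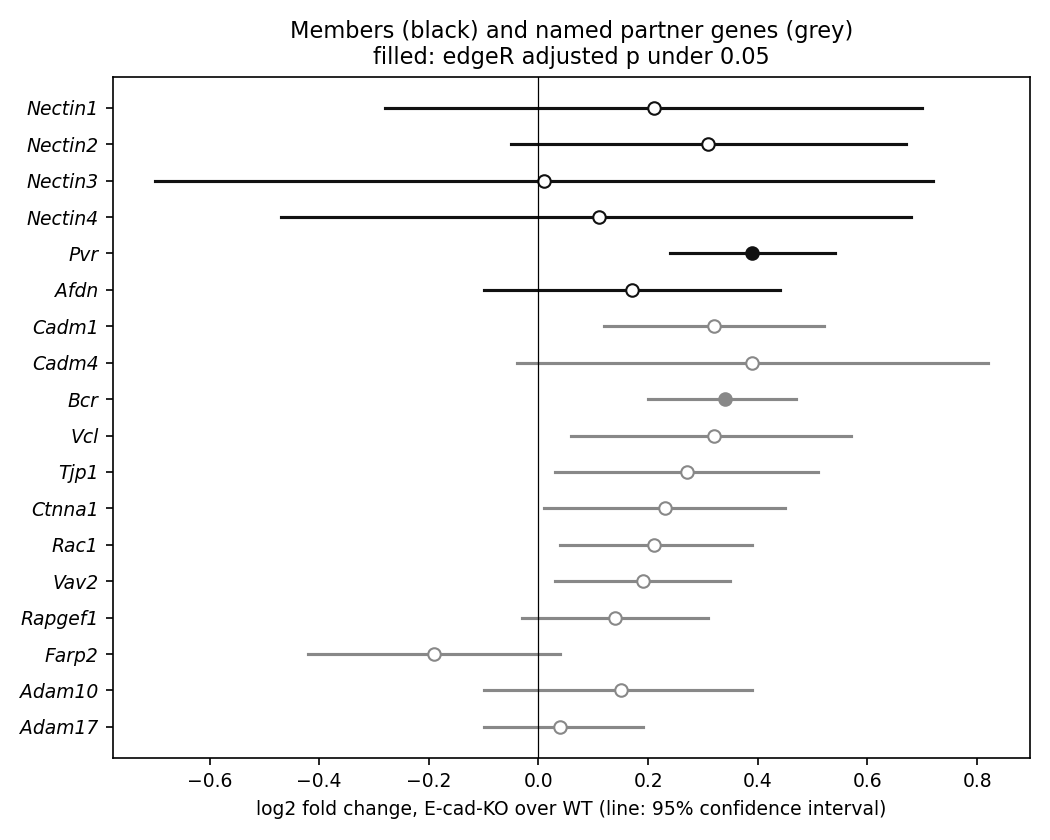
Log2 fold change of E-cad-KO over WT with its 95% confidence interval for the 6 members (black) and the named partner genes (grey, without the scarcely expressed Cadm3 and Tigit), filled where the edgeR adjusted p was under 0.05. Pvr (0.39) and Bcr (0.34) are filled, and the intervals of Nectin1, Nectin2, Nectin3, Nectin4 and Afdn include 0.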

How the data were processed

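The authors deposited raw counts per gene, not normalised, for each of the 9 libraries. Per the labels' protocols, RNA came from whole frozen gels and libraries from a stranded mRNA kit. Per the submitters' processing notes, the tools were Bowtie2, TopHat2 and HTSeq on GRCm38, and their versions, the annotation and the strand setting are not given in the sources at hand. Symbols were matched for 51633 of 51912 genes. Positions and lengths came from GENCODE M21 (GRCm38), promoter windows from RefSeq (GRCm38.p6).

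Genes were tested with edgeR 4.0.16 (R 4.3.3) by quasi-likelihood, with TMM factors, robust dispersions, filterByExpr (17289 genes tested) and group as the only term. P-values are two-sided, Benjamini-Hochberg adjusted over all genes tested, and called under 0.05. The SE is the log2 fold change divided by the square root of F, and the 95% interval uses the fit's t quantile. All libraries of a group differed by more than sampling noise (smallest chi-square per degree of freedom 13.7). The routines were tested on simulated counts.

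The 6 members, the lists and the tests were chosen with earlier results of these data known. The named genes are all members, Cdh1, the 4 listed genes of smallest p in each list with all called ones, and the 3 genes of at least 5 CPM most like each member. Alternatives were median-of-ratios and upper-quartile scaling, a filter of 1 count in all, a filter of 1 CPM in at least 4 libraries, the tools DESeq2 1.42.0 and limma-voom (limma 3.58.1, quality weights), non-robust dispersions, the replicate number as a block and each library left out. WT 1 and WT 4 left out together, the macrophage score and the length and GC offsets (mgcv 1.9.3) were added after seeing the data.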

Additional observations from a re-analysis of the deposited data

Results flagged for a closer look

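Of the 21 genes tested for differences and named, the highest and lowest value in each group was compared with the rest of the group, 42 groups in all, of which chance flags about 1 in 20. Cdh1 in E-cad-KO 2 (118.3 CPM) stood apart from the other E-cad-KO libraries (79.0 to 87.3 CPM). Rapgef1 in WT 3 (68.1 CPM) stood apart from the other WT libraries (58.8 to 59.9 CPM). None of the 6 members had a library that stood apart in this way within its group.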

How the results depend on the processing

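Pvr kept a positive log2 fold change in all 20 alternatives run (0.36 to 0.48, adjusted p from 2.3e-05 to 0.125) and was called in 12 of them. Nectin1 (0.04 to 0.38), Nectin2 (0.19 to 0.46) and Afdn (0.06 to 0.28) stayed positive in the same 20. The number of members called was 1 with edgeR as reported, 0 to 1 with single libraries left out, 3 with the macrophage score as covariate and 0 with the replicate block. The number of partner genes called was 1 as reported and 0 to 1 with single libraries left out. It was 2 with DESeq2, 5 with the macrophage score as covariate, and 0 with upper-quartile factors, with the replicate block, without WT 1 and WT 4 together and with length and GC offsets. Over all genes, 244 were called, against 9 (without WT 3) to 334 (without WT 4) with single libraries left out, 1206 with DESeq2, 509 with limma-voom, 79 without WT 1 and WT 4 together and 1291 with the macrophage score. Signs that turned, always without a call, were those of Nectin3 with upper-quartile factors (-0.03), the replicate block (-0.10), length and GC offsets (-0.04) and 4 of the single omissions (-0.18 to 0.32 over all 9), of Nectin4 (-0.06 to 0.32 over the 9 single omissions) and of Cadm3 (-0.96 to 0.22 over the 9). The cause of these changes was not tested.

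Replicate numbers 1 to 4 occur in both groups, and the labels do not say whether they pair the samples. The deviations of same-numbered libraries from their group means correlated at -0.324, 0.235, -0.03 and 0.284 for numbers 1 to 4. Such values cannot settle whether samples were paired, because the deviations also carry other differences between libraries. With the replicate block, edgeR made 0 calls (2418 genes had an unadjusted p under 0.05), and Pvr stood at 0.39 (adjusted p = 0.125). With 4 WT and 5 E-cad-KO libraries, the intervals of Nectin1, Nectin2, Nectin3 and Nectin4 reach beyond 0.6 on the log2 scale.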
